A study of Mus musculus with 6 samples.

Results

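The miRNAs described here are those that hepatocytes and the gut epithelium are known for, as they appeared in serum exosomes of mice after electrical acupuncture. They were chosen by name and are mmu-miR-122-5p and mmu-miR-122-3p of the liver together with mmu-miR-192-5p, mmu-miR-194-5p and mmu-miR-215-5p of liver and gut (mmu for mouse, left out from here on), which makes 5 of the 1982 rows of the deposited table. Exosomes are vesicles shed by cells, here those circulating in blood, and miRNAs are short RNAs that bind mRNAs and hold back their translation. Serum was drawn from 6 male C57BL/6 mice at 3 months of age, and each mouse gave its own small RNA library. The 3 mice of the Acu/LFES group had a pair of acupuncture needles in the hindlimb and received 20 Hz pulses of 1 mA once for 30 min. For the 3 sham mice the current stayed off, with wired needles placed next to those points. All mice were otherwise untreated wild-type animals, and the study asked whether the stimulus changes the miRNA cargo of circulating exosomes.

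miR-122 is the dominant miRNA of hepatocytes, where it takes part in cholesterol and lipid metabolism, and in blood it is widely used as a marker of liver injury. miR-192, miR-194 and miR-215 are made in epithelial cells of gut, liver and kidney. Their genes lie in a pair of clusters, each with a copy of miR-194. miR-192 and miR-215 are also induced by p53 and act on cell cycle genes. Serum holds vesicles of many tissues, so fewer vesicles from an organ and less of a miRNA in each vesicle cannot be told apart in these libraries.

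The mature sequences of the miR-192, miR-194 and miR-215 group are shown first, because their likeness bears on how reads were counted. They are from RefSeq on GRCm38.p6, are written 5′ to 3′, and have the seed, bases 2 to 8, in capitals. All 3 members of this group matched by name.
miR-192-5p: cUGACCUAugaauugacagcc
miR-215-5p: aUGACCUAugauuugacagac
miR-194-5p: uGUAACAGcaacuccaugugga

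miR-192-5p and miR-215-5p share the seed UGACCUA, which no other mature name in the RefSeq table has. They are identical at 18 of 21 positions. Counted from 1 at the 5′ end, with the base of miR-192-5p first, the differences are C1A, A12U and C20A. miR-194-5p has the seed GUAACAG, found under no other RefSeq name used here. These RefSeq names lack miR-122, so both statements on seeds hold only among the names present. The other strands of the miR-194 hairpins are near-copies of each other, identical at 18 of 22 positions, and are shown because the gene that a read came from can be told only from them.
miR-194-1-3p: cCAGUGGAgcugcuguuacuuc
miR-194-2-3p: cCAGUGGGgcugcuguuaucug

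The first cluster lies on chromosome 1, with Mir194-1 from 185313319 to 185313385 and Mir215 from 185313581 to 185313692, both on the plus strand and 195 bases apart. In GENCODE M21 both hairpins lie in an intron of the protein-coding gene Iars2, which runs on the other strand. Mir194-1 lies in an intron and Mir215 in an exon of the noncoding gene 2010103J01Rik, which runs on their own strand. The second cluster lies on chromosome 19, with Mir194-2 from 6264643 to 6264728 and Mir192 from 6264844 to 6264932, on the plus strand and 115 bases apart, outside any other annotated gene. Each miR-194-5p read can come from either cluster, since both genes make the same sequence.

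Library totals ran from 391708 to 1504137 counts, and 3 counts, the smallest number taken to show a miRNA, stood at 1.80 to 9.91 CPM depending on the library. CPM here means counts per 1e+06 of a library size scaled by edgeR's TMM factors, which rest on the miRNAs that change least. These factors ran from 0.65 to 2.12. The 2.12 belongs to Acu/LFES mouse 6. There miR-486a-5p and miR-486b-5p, listed with identical counts and grouped below with red-cell markers, took 29.2% of all counts. In the other mice they took 61.7% to 74.0%. Both rows enter these shares and the library totals separately, so a read listed under both names would be counted under each. Poisson intervals and floors given below cover counting error only, whereas the intervals of fold changes also include the spread between mice.

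miR-122-5p was the most abundant of the group. With TMM factors miR-122-5p and the rare miR-194-5p varied most between mice of a group (SD 1.27 and 1.35 in log2 units), and miR-215-5p and miR-192-5p varied least (0.29 and 0.11). miR-122-5p ranked 12 by mean CPM among the 954 miRNAs with a count, miR-215-5p 20, miR-192-5p 32 and miR-194-5p 181. miR-215-5p had more counts than miR-192-5p in 6 of 6 mice, and miR-192-5p more than miR-194-5p in 6 of 6. miR-122-5p was above miR-215-5p in 5 of 6 mice, and the exception was Acu/LFES mouse 4. These orders are of read counts per miRNA, with mature RNAs short enough for a read to cover them whole, and the adapter ligation of such libraries is known to favour some sequences over others.

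**Figure D1:**
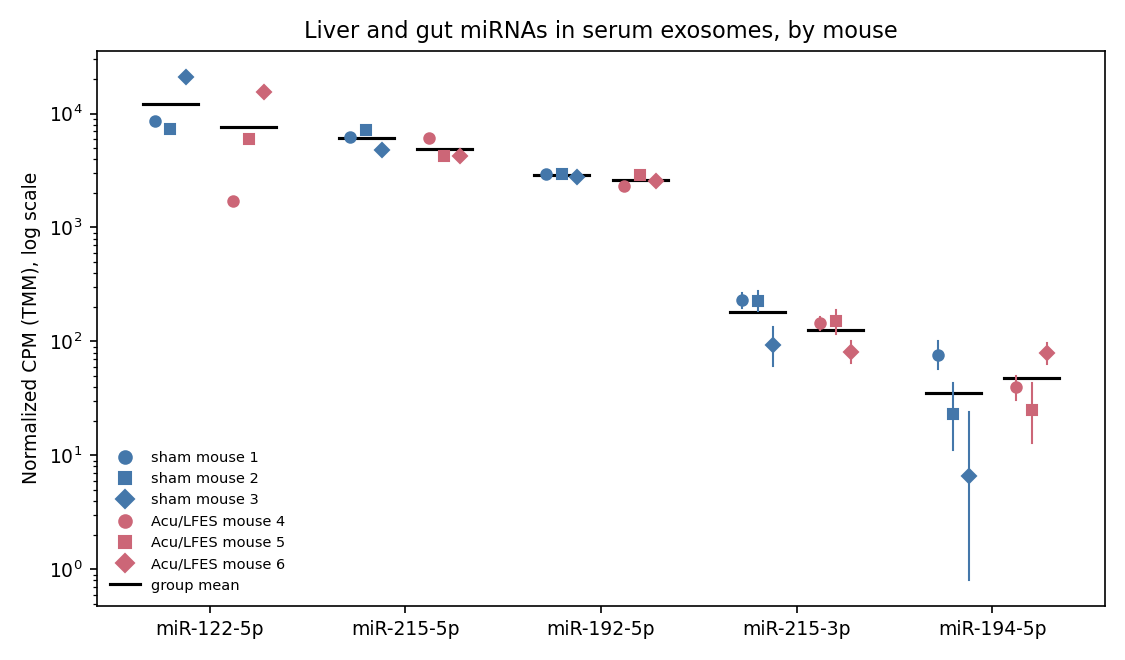
Normalized CPM on a log axis for the 4 tested members and for miR-215-3p, 1 point per mouse, with vertical lines for the 95% counting interval and black bars for group means. miR-122-5p and miR-194-5p spread over about 12-fold between mice, and the groups overlap in every miRNA shown.

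Of the 5 members, 4 passed the filter on low counts, and Acu/LFES was compared with sham by edgeR's quasi-likelihood test across 259 miRNAs. At an adjusted p under 0.05 the number called was 0 of 4 members and 0 of all miRNAs, or 0% of those tested, and the smallest adjusted p among all was 0.269. At an unadjusted p under 0.05 it was again 0 of 4 members, where 23 miRNAs or 8.88% of all tested were called. Under DESeq2, with its own size factors and a Wald test, the number of members was 0 at either threshold, and 8 other miRNAs had an adjusted p under 0.05. In 0 of 4 members did the groups fail to overlap, against 44 miRNAs or 17% of all tested (8.88% with the Acu/LFES mice higher and 8.11% with them lower). The median log2 fold change of Acu/LFES over sham was -0.23 over the 4 tested members and 0.05 over all miRNAs tested.

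Among liver miRNAs, miR-122-5p had 8546, 7325 and 20828 CPM in sham mice 1, 2 and 3, from 5928, 3140 and 6303 counts. In Acu/LFES mice 4, 5 and 6 it had 1693, 6003 and 15312 CPM, from 2829, 2887 and 16779 counts. The sham mouse with the highest level and the Acu/LFES mouse with the highest level both lay above the remaining 4 mice, and the groups overlapped widely. A mean of 12233 ± 7469 CPM (SD, n = 3) among sham mice stood against 7669 ± 6960 CPM (SD, n = 3) after Acu/LFES. This gave a log2 fold change of -0.67 with a standard error of 0.67 (edgeR's quasi-likelihood test, Benjamini-Hochberg adjusted p = 0.799). The 95% interval ran from -2.16 to 0.81 on the log2 scale, or from 0.224-fold to 1.76-fold, so neither a marked decrease nor an increase was outside what these mice allow.

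The size of the miR-122-5p difference depended on single mice, and its direction on the scaling. Without Acu/LFES mouse 6 the log2 fold change was -1.63 (unadjusted p = 0.0306, adjusted p = 0.659 in edgeR), and without sham mouse 3 it was -0.02. Without Acu/LFES mouse 4 it was -0.21. With total miRNA counts in place of TMM factors it was 0.36, and with no filter on low counts it was -0.60 at an unadjusted p of 0.0429 (adjusted p = 0.577). As a share of all counts in its library miR-122-5p took 0.188% in Acu/LFES mouse 4 and 3.24% in Acu/LFES mouse 6. The share of miR-486a-5p and miR-486b-5p was 61.9% in Acu/LFES mouse 4, 29.2% in Acu/LFES mouse 6 and 71.2% in sham mouse 3, and its part in the level of miR-122-5p was not tested.

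**Figure D2:**
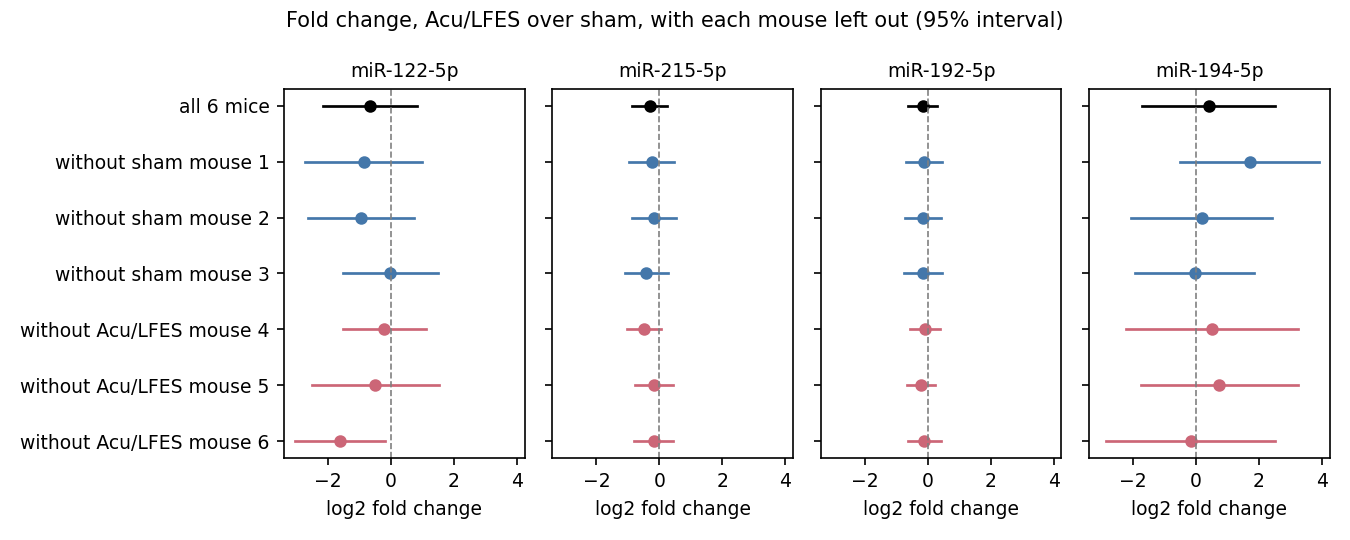
Log2 fold change of Acu/LFES over sham with its 95% interval for the 4 tested members, with all 6 mice in black, without a sham mouse in blue and without an Acu/LFES mouse in red. miR-122-5p moved between -1.63 and -0.02, whereas miR-192-5p stayed between -0.20 and -0.09.

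The spread of miR-122-5p between mice was far above its counting error. The counting error of a single library was at most 1.88% of its level, while the highest level was 12.3 times the lowest. Its SD between mice of the same group, pooled over both groups, was 1.27 in log2 units, where the median over all tested miRNAs was 0.70. Among the 50 tested miRNAs with a mean of at least 1000 CPM, a minimum set after seeing the data, 0 had a higher SD and the median was 0.30. This number was 0 under each of the other 4 scalings as well, for which the SD of miR-122-5p lay between 1.28 and 1.72. These are descriptions over 2 groups of 3 mice and carry no test.

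**Figure D3:**
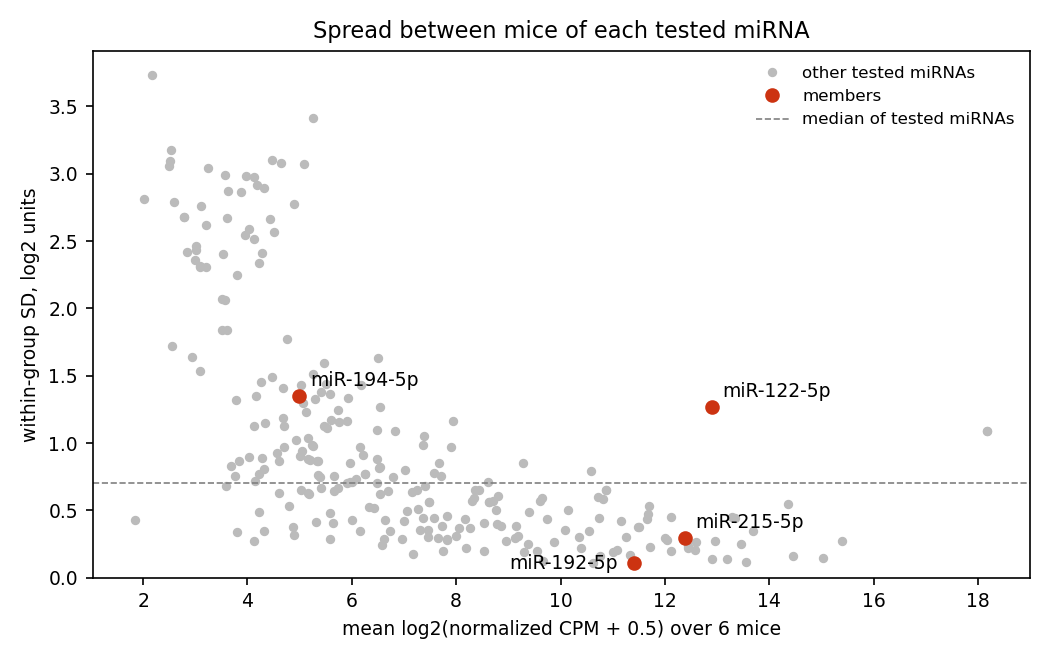
SD between mice of the same group, in log2 units, against the mean log2 level for the 259 tested miRNAs, with members in red and the median of 0.70 as a dashed line. miR-122-5p lies above all other miRNAs of its abundance, and miR-192-5p lies at the bottom of the plot.

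miR-122-3p, the passenger strand of the same hairpin, had 7 counts in Acu/LFES mouse 6, or 6.39 CPM with a 95% Poisson interval from 2.57 to 13.2, and 0 counts in the other 5 mice. For a count of 0 the 95% Poisson upper limit was 12.2 CPM in sham mouse 3 and 2.21 CPM in Acu/LFES mouse 4. Acu/LFES mouse 6 was also the library with the most miR-122-5p counts. Too few counts were present to test this strand, and a difference between the groups was not detectable at this depth.

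Among the members miR-192-5p varied least between mice of a group, except with scaling to miR-103-3p, where its SD was 0.61 in log2 units against 0.31 for miR-215-5p. It had 2934, 2937 and 2796 CPM in sham mice 1, 2 and 3, and 2331, 2886 and 2557 CPM in Acu/LFES mice 4, 5 and 6. The lowest values were those of Acu/LFES mice 4 and 6, but Acu/LFES mouse 5 lay within the sham range. A mean of 2889 ± 80.7 CPM (SD, n = 3) among sham mice stood against 2591 ± 279 CPM (SD, n = 3) after Acu/LFES. The log2 fold change was -0.16 ± 0.20 (SE), with an adjusted p of 0.840 in edgeR. The 95% interval was from 0.654-fold to 1.23-fold. The counting error of a library reached 3.44% of its level.

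With TMM factors 0 of the 259 tested miRNAs had a lower SD between mice of a group than miR-192-5p, whose SD was 0.11 in log2 units. This position depended on the scaling. The number with a lower SD was 3 when both miR-486 rows were dropped from the totals, 6 with upper-quartile factors, 46 with total miRNA counts and 62 with scaling to miR-103-3p. The last of these is the reference miRNA of the study's serum qPCR. The miRNAs with the smallest root-mean-square difference from miR-192-5p over the 6 mice were miR-30d-5p, miR-10b-5p and miR-26a-5p. The differences were 0.14, 0.14 and 0.15 log2 units between centred profiles. They are no smaller than the SD of miR-192-5p itself over the 6 mice, 0.13 log2 units, so they show a like small spread and not levels that moved together. Acu/LFES mouse 5 had the lowest level of miR-30d-5p and the highest of miR-10b-5p.

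miR-215-5p, which carries the same seed, had 6192, 7143 and 4788 CPM across sham mice 1, 2 and 3, against 6084, 4269 and 4266 CPM across Acu/LFES mice 4, 5 and 6. Acu/LFES mice 5 and 6 lay below all sham mice, and Acu/LFES mouse 4 lay between sham mice 3 and 1. A mean of 6041 ± 1185 CPM (SD, n = 3) among sham mice stood against 4873 ± 1049 CPM (SD, n = 3) after Acu/LFES. The log2 fold change was -0.31 ± 0.25 (SE), with an adjusted p of 0.799 in edgeR and a 95% interval from 0.545-fold to 1.19-fold. With total miRNA counts it was 0.32 for miR-215-5p and 0.48 for miR-192-5p, so the sign of both turned. Under this scaling the median of all tested miRNAs moved to 0.71, and relative to that median miR-122-5p, miR-192-5p and miR-215-5p stood at -0.35, -0.23 and -0.39.

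**Figure D4:**
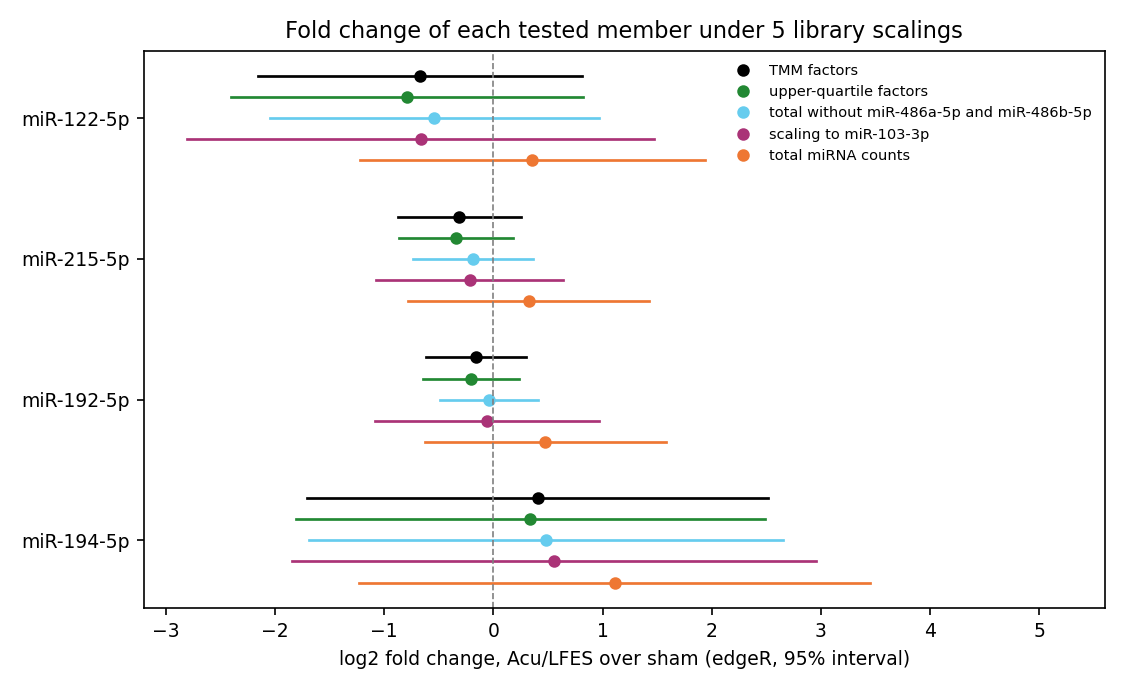
Log2 fold change of Acu/LFES over sham with its 95% interval for the 4 tested members under 5 ways of scaling the libraries. The points of miR-122-5p, miR-215-5p and miR-192-5p lie below 0 under 4 scalings and above 0 with total miRNA counts, and every interval spans 0.

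Within a library, miR-215-5p made up 59.7% to 72.3% of the reads with the shared seed, with both extremes among the Acu/LFES mice. The ratio of miR-215-5p to miR-192-5p was 2.11, 2.43 and 1.71 across sham mice 1, 2 and 3, against 2.61, 1.48 and 1.67 across Acu/LFES mice 4, 5 and 6. Acu/LFES mouse 4 was highest and Acu/LFES mouse 5 lowest, so the groups overlapped. How many mismatches the counting allowed is not given in the sources used here, so an exchange of reads between these near-identical miRNAs cannot be told from these counts. With both counted as 1 miRNA, an alternative chosen after seeing the data, the log2 fold change was -0.25 (adjusted p = 0.803 in edgeR).

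The passenger strand miR-215-3p had 159, 97 and 28 counts in sham mice 1, 2 and 3 against 242, 72 and 89 in Acu/LFES mice 4, 5 and 6, or 1.87% to 3.57% of the reads of its hairpin. It averaged 183 ± 78.1 CPM (SD, n = 3) among sham mice against 125 ± 38.2 CPM (SD, n = 3) after Acu/LFES. The log2 fold change was -0.55 ± 0.49 (SE), with an adjusted p of 0.799 in edgeR. The groups overlapped. miR-192-3p was seen in a single mouse, Acu/LFES mouse 4, with 4 counts.

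miR-194-5p, although its genes sit beside those of miR-192 and miR-215, was far less abundant than either. It had 53, 10 and 2 counts in sham mice 1, 2 and 3, and 66, 12 and 87 counts in Acu/LFES mice 4, 5 and 6. In CPM these were 76.4, 23.3 and 6.61 across sham mice 1, 2 and 3, against 39.5, 25.0 and 79.4 across Acu/LFES mice 4, 5 and 6. Sham mouse 1 and Acu/LFES mouse 6 were highest and the groups overlapped. The 2 counts of sham mouse 3 are under its floor and have a 95% Poisson interval from 0.800 to 23.9 CPM. A mean of 35.4 ± 36.4 CPM (SD, n = 3) among sham mice stood against 47.9 ± 28.2 CPM (SD, n = 3) after Acu/LFES. The log2 fold change was 0.40 with a standard error of 0.94 (adjusted p = 0.924 in edgeR), and its 95% interval from 0.307-fold to 5.70-fold shows how little these counts resolve. Without sham mouse 1 it was 1.70, and without sham mouse 3 or Acu/LFES mouse 6 it turned to -0.05 and -0.18.

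The other strands of the miR-194 hairpins were rarer still. miR-194-1-3p, from chromosome 1, had counts of 11, 1 and 0 for sham mice 1, 2 and 3 against 0, 2 and 4 for Acu/LFES mice 4, 5 and 6. miR-194-2-3p, from chromosome 19, had 0 counts in every sham mouse, against 1, 15 and 16 in Acu/LFES mice 4, 5 and 6. The single count of Acu/LFES mouse 4 is under its floor. For the 0 counts of sham mice 1, 2 and 3 the Poisson upper limits, at the confidence level used above, were 5.32, 8.61 and 12.2 CPM. Acu/LFES mice 5 and 6 had 31.2 and 14.6 CPM. Neither strand had enough counts to be tested, and the sequences that set them apart were printed above. Rare miRNAs were seen more often in Acu/LFES libraries in general. Each Acu/LFES library had a count for 489 to 666 miRNAs, against 338 to 453 in sham libraries. With no filter on low counts the median log2 fold change over all 954 miRNAs was 0.68.

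Ratios within a library need no scaling between libraries. On the log2 scale the ratio of miR-122-5p to miR-192-5p was 1.54, 1.32 and 2.90 in sham mice 1, 2 and 3, and -0.46, 1.06 and 2.58 in Acu/LFES mice 4, 5 and 6. Acu/LFES mouse 4 alone had less miR-122-5p than miR-192-5p, and sham mouse 3 and Acu/LFES mouse 6 had the highest ratios. The means were 1.92 ± 0.85 and 1.06 ± 1.52 (SD, n = 3 each), and a two-sided exact permutation test gave p = 0.4, where 3 mice against 3 cannot go below 0.1.
The log2 ratio of miR-192-5p to miR-194-5p was 5.26, 6.98 and 8.72 across sham mice 1, 2 and 3, against 5.88, 6.85 and 5.01 across Acu/LFES mice 4, 5 and 6. The highest is that of sham mouse 3, which rests on 2 counts of miR-194-5p. The means were 6.99 ± 1.73 and 5.92 ± 0.92 (SD, n = 3 each, two-sided exact permutation p = 0.4). Adjusted over the 2 ratios tested, both had p = 0.4 in the exact permutation test.

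**Figure D5:**
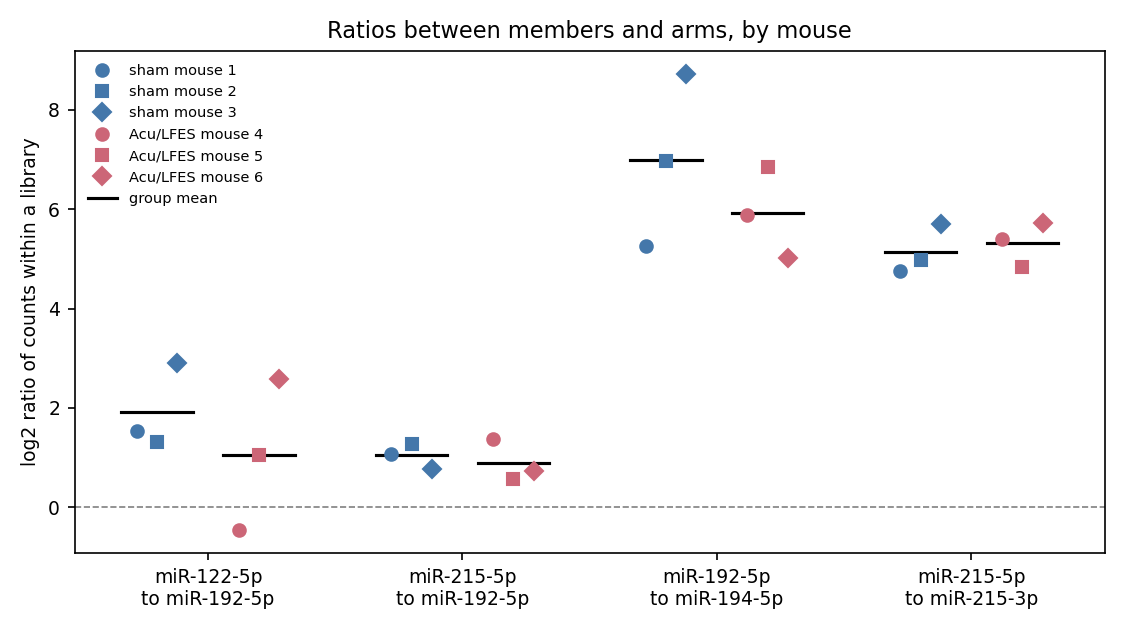
Log2 ratios of counts within a library for 4 pairs of miRNAs, 1 point per mouse, with black bars for group means. The ratio of miR-215-5p to miR-192-5p stays between 0.56 and 1.38, while that of miR-192-5p to miR-194-5p runs from 5.01 to 8.72.

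The 5 members together took 1.97%, 1.13% and 2.20% of all miRNA counts across sham mice 1, 2 and 3, against 1.13%, 1.00% and 4.71% across Acu/LFES mice 4, 5 and 6. Acu/LFES mouse 6 stood above the others, and the remaining mice overlapped between groups. The difference of 0.51 percentage points had p = 1 in a two-sided exact permutation test. Over totals without both miR-486 rows the shares were 5.15%, 4.36% and 7.61% across sham mice 1, 2 and 3, against 2.96%, 3.79% and 6.64% across Acu/LFES mice 4, 5 and 6, so the difference turned to -1.24 percentage points (exact permutation p = 0.5). Within the members, miR-122-5p made up 16.7% of the counts in Acu/LFES mouse 4 and 73.3% in sham mouse 3, and miR-215-5p made up 60.0% and 16.8% in the same mice.

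The miRNAs most like miR-122-5p over the 6 mice were miR-6236, miR-337-5p and miR-378a-5p, with root-mean-square differences of 0.52, 0.61 and 0.64 log2 units, all far less abundant than miR-122-5p itself. Those most like miR-194-5p were miR-361-3p, miR-152-3p and miR-1843a-5p, at 0.49, 0.53 and 0.56 log2 units.

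Of 10 other miRNAs that liver expresses along with other tissues, 8 had a count and 7 were tested. miR-148a-3p and miR-22-3p had higher levels after Acu/LFES (unadjusted p under 0.05), 0 were lower, and 0 had an adjusted p under 0.05 in edgeR. The background was 5.79% of all tested miRNAs higher and 3.09% lower. miR-148a-3p had 266 CPM in sham and 517 CPM in Acu/LFES mice (log2 fold change 0.96, adjusted p = 0.269 in edgeR and 0.00664 in DESeq2). miR-22-3p had 3333 and 5468 CPM (log2 fold change 0.71, adjusted p = 0.429 in edgeR and 0.0968 in DESeq2). The median log2 fold change of the 7 was 0.42. Summed over the list, sham mice had 10571 to 11498 CPM and Acu/LFES mice 12968 to 16512 CPM, so the sums did not overlap. Taken singly, 17% of all tested miRNAs did not overlap either. Most of the sum came from miR-30a-5p, miR-22-3p and miR-378a-3p. These had 5025, 3333 and 2153 CPM in sham and 6254, 5468 and 1963 CPM in Acu/LFES mice. Whether the sums overlapped depended on the scaling. The groups overlapped with total miRNA counts and with scaling to miR-103-3p, and did not in the other 3 of 5 scalings. No test was made of the sums, and the scalings were compared after seeing the data. miR-802-5p, which is typical of liver and pancreas, had 12 counts in Acu/LFES mouse 6 and 0 in the other mice, and miR-802-3p and miR-33-5p were at 0 in all mice.

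Of 8 other miRNAs of gut and other epithelia, 8 had a count and 7 were tested, with a median log2 fold change of -0.43. miR-375-3p, which is enriched in islets and also found in gut, was lower at an unadjusted p under 0.05 with 434 CPM in sham and 197 CPM in Acu/LFES mice, and 0 of the 7 passed adjustment in edgeR. That is 1 of 7 lower and 0 higher, against 3.09% and 5.79% of all tested miRNAs. For miR-375-3p the log2 fold change was -1.14, with an adjusted p of 0.269 in edgeR and 0.00664 in DESeq2. Fitted values in the list had both signs, with miR-203-3p at a log2 fold change of 0.92 (307 and 581 CPM), miR-31-5p at 1.80, miR-429-3p at -1.21 and miR-200c-3p at -0.68. None of these was under an unadjusted p of 0.05 in edgeR. In DESeq2 the unadjusted p was 0.0257 for miR-429-3p and 0.0450 for miR-200c-3p (adjusted p = 0.238 and 0.333). It was 0.0785 for miR-203-3p and 0.172 for miR-31-5p in DESeq2. For this list the summed level was 1028 to 1690 CPM in sham and 834 to 1370 CPM in Acu/LFES mice.

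Markers of other sources of serum RNA were examined beside the members. The summed level of 5 platelet and white-cell markers, all tested, was 6411 to 7829 CPM in sham and 5063 to 7053 CPM in Acu/LFES mice. The 7 skeletal and cardiac muscle markers summed to 10094 to 11262 CPM and 7483 to 12453 CPM, with miR-208a-3p and miR-208b-3p at 0, and the 2 endothelial markers to 2151 to 2589 CPM and 1487 to 2171 CPM. Of 6 red-cell markers 4 were tested. They summed to 556877 to 1138430 CPM in sham and 138818 to 965923 CPM in Acu/LFES mice, nearly all from miR-486a-5p and miR-486b-5p, whose identical counts enter the sum separately (log2 fold change -0.66 for each, adjusted p = 0.799 in edgeR). Sums above 1e+06 arise where a TMM factor is under 1. miR-451a had 1043 CPM in sham and 1319 CPM in Acu/LFES mice (log2 fold change 0.34), and miR-144-5p had a log2 fold change of 0.54. The tested red-cell markers thus had both signs. 0 markers of these lists had an unadjusted p under 0.05 in edgeR. The islet marker miR-375-3p, given above with the gut list, did (unadjusted p = 0.00462 in edgeR). It had 348 to 492 CPM in sham and 179 to 221 CPM in Acu/LFES mice, without overlap, as in 17% of all tested miRNAs. The part of all these markers in the levels of the liver and gut miRNAs was not tested.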

How the data were processed

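Small RNA libraries of serum exosomes were compared between 3 sham and 3 Acu/LFES mice, grouped by the sample labels. Mouse numbers run from 1 to 6 over both groups and pair no mice. The authors deposited raw counts per mature miRNA. The submitters' processing notes name bcl2fastq 1, cutadapt 1.6 and DESeq2 1.26.0. The aligner, the miRNA annotation and the mismatches allowed, which decide how near-identical miRNAs share reads, are not given in the sources used here. Of 1982 rows, 67 carry the names of other species and held at most 0.00428% of a library's counts.

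TMM factors and quasi-likelihood tests were run on these counts with edgeR 4.0.16 (R 4.3.3), after its own filter for low counts. Benjamini-Hochberg adjustment was over 259 miRNAs, with a threshold of 0.05. Each standard error was derived from the F statistic. CPM used TMM-scaled libraries, and log2 profiles and SDs a pseudocount of 0.5. For ratios and shares, exact permutation tests (two-sided) were used. Totals of 391708 to 1504137 counts set the precision, given as 95% exact Poisson intervals. No pair of libraries was alike enough to be a single library. The fit was tested on simulated data. Members and lists were chosen with earlier results of these data known. Named miRNAs were the members, the other arms of their hairpins, lists of liver, gut and marker miRNAs, those used for scaling, and the 3 nearest profiles of miR-122-5p, miR-192-5p and miR-194-5p, by root-mean-square difference of centred log2 CPM. Within the lists, the single miRNAs given were picked after their values were seen. Alternatives were DESeq2 1.42.0, other scalings, other filters, identical rows kept once and each mouse left out. The sum of miR-192-5p and miR-215-5p, and the spread and the liver list's sum under each scaling, were added after seeing the data. Sequences are from RefSeq, and positions from RefSeq and GENCODE M21, on GRCm38.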

Additional observations from a re-analysis of the deposited data

How the results depend on the processing

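The number of members with an adjusted p under 0.05 was 0 under every alternative run. Among all miRNAs it was 0 in edgeR under every alternative and with each mouse left out, against 7 to 53 at an unadjusted p under 0.05, and 8 with DESeq2, and the cause was not tested. Under scaling by total miRNA counts the log2 fold change turned to 0.36 for miR-122-5p, 0.48 for miR-192-5p and 0.32 for miR-215-5p, as the median of all miRNAs moved from 0.05 to 0.71. The split of unadjusted calls was then 23 higher and 0 lower against 15 and 8, and 7 and 0 with scaling to miR-103-3p. With no filter 53 miRNAs were called at that level against 23, and 48 without sham mouse 1. With each mouse left out, log2 fold changes ran from -1.63 to -0.02 for miR-122-5p, from -0.20 to -0.09 for miR-192-5p, from -0.49 to -0.17 for miR-215-5p and from -0.18 to 1.70 for miR-194-5p, which was -0.05 without sham mouse 3 and -0.18 without Acu/LFES mouse 6. The log2 ratio difference ran from -1.62 to -0.10 for miR-122-5p to miR-192-5p and from -1.94 to -0.20 for miR-192-5p to miR-194-5p. The share of counts taken by the members went from -0.70, without Acu/LFES mouse 6, to 1.15 percentage points, and was -1.24 without miR-486a-5p and miR-486b-5p in the denominator. miR-194-5p was not tested with at least 10 counts in every library, and DESeq2 gave it no adjusted p. miR-122-3p was tested only without the filter, where its fold change depends on the prior count and is not given.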
